A study of Arabidopsis thaliana with 9 samples.

Results

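The DNA sites that the Arabidopsis transcription factor NAC103 binds outside the cell were measured by DNA affinity purification sequencing (DAP-seq) in 2 replicates. In this assay a NAC103-Halo fusion protein is mixed with genomic DNA, the fusion is recovered by its Halo tag, and the DNA that stays with it is sequenced. The DNA came from whole seedlings of genotype Col, 5 days old, with treatment labelled as none, and both replicates were called against the same NAC103-Halo input (n = 1). The other samples of the series, 3 NAC103-GFP ChIP libraries and their 3 inputs, came from 35S:NAC103-GFP seedlings held in 20 µM MG132 for 24 h, and set no filter on the sites described here. Each DAP replicate came with 1 list of peaks. Peaks on chromosomes 1 to 5 were merged where they shared 1 bp or more, which gave 23389 regions, and the 18082 regions with a peak in both replicates (77.3%) were kept. For the DNA, the sample labels repeat the fixing and sonication of the ChIP samples while the design text speaks of extracted genomic DNA, and this was not settled here. No DAP of the Halo tag alone was analysed here, the labels do not say how the fusion protein was made, and they do not say whether the replicates used separate DNA or protein preparations. The spread between the replicates may thus be technical.

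NAC proteins are a large family of plant transcription factors that share an N-terminal DNA-binding domain, the NAC domain, and act in development, senescence and stress. NAC103 is known in Arabidopsis as a gene induced by stress of the endoplasmic reticulum, downstream of the factor bZIP60. DNA in a DAP assay is free of nucleosomes and of partner proteins, so the method reads the preference of the protein for DNA alone, including sites that are closed in living tissue.

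The replicate lists were alike in size and in strength. Replicate 1 held 20746 nuclear peaks and replicate 2 held 20962. The authors' fold enrichment, which is the signal at the summit of a peak relative to the background, had a median of 2.74 in replicate 1 and 2.71 in replicate 2, and reached 31.3 and 30.8. The lists include weak peaks: the lowest folds were 1.04 and 1.03, and −log10 q started at 1.39 and 1.48. Fold and q did not give the same order. The highest nuclear −log10 q was 2656 in replicate 1 and 2702 in replicate 2, while the region of highest fold had 1637 and 1667. A −log10 q of at least 10 was held by 80.6% of the peaks in replicate 1 and by 80.2% in replicate 2. The lists give no read totals, so the depth of the libraries is unknown.

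Regions found in both replicates carried nearly the same fold in each. Their median fold was 2.90 in replicate 1 and 2.88 in replicate 2, and the middle 50% of regions lay between 2.35 and 3.85 for the mean of both. The log2 ratio of the folds had an SD of 0.16 over the 18082 regions, and ranged from -0.73 to 0.64. Summits of the replicates lay 9 bp apart at the median, and within 100 bp of each other in 16996 regions (94.0%). Both libraries share an input, and its part in this likeness was not tested. A fold of at least 3 in both replicates was reached by 7517 regions (41.6%), of at least 5 by 1881 (10.4%), of at least 10 by 144 (0.796%) and of at least 20 by 7.

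**Figure D1:**
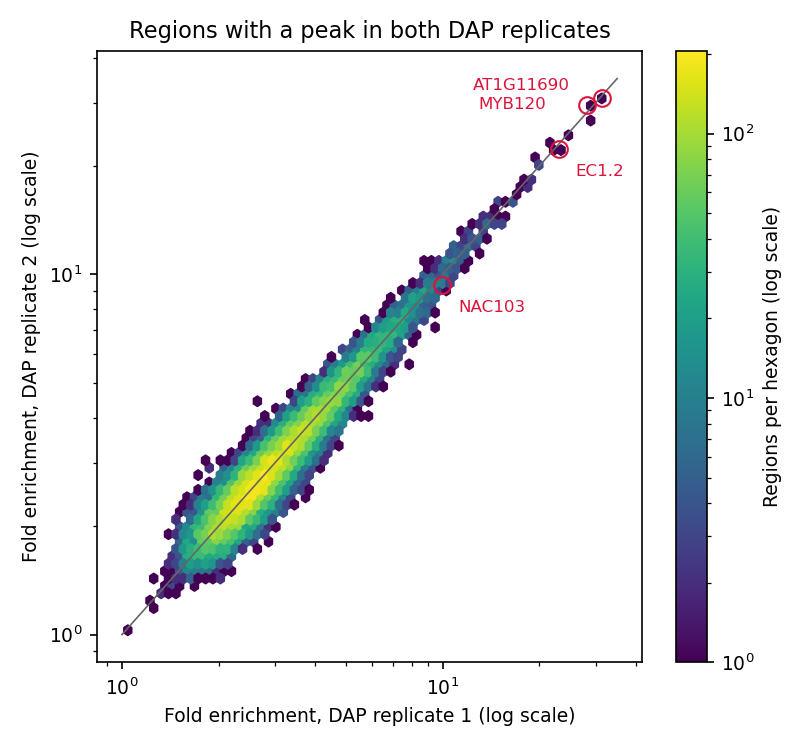
Fold enrichment of each region in replicate 1 (x axis) and replicate 2 (y axis), both on log scales, with colour for the number of regions per hexagon and a line where the folds are equal. The regions lie along the line from a fold near 1 up to 31.3 and 30.8 at AT1G11690, and the circled region in NAC103 has folds of 9.95 and 9.33.

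Regions seen in 1 replicate only were weak ones. The 2521 regions of replicate 1 alone had a median fold of 2.07 and a highest fold of 3.57, and the 2786 of replicate 2 alone had 2.05 and 3.76. Of these regions, 77.8% in replicate 1 and 79.0% in replicate 2 lay under the lower quartile of the shared regions. All regions with a fold above 3.76 in either list were therefore found in both.

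Sites of NAC103 in this assay were denser inside genes than between them. The anchor of a region, the summit of its best-ranked peak, lay inside a protein-coding gene for 11726 regions (64.8%), while such genes cover 54.1% of the nuclear sequence. Per 100 kb of sequence there were 18.2 anchors inside coding genes and 11.6 outside them. A window reaching 1000 bp outward and 500 bp inward from either gene end held 10057 anchors (55.6%), against 48.1% of the sequence. Another 5026 (27.8%) lay deeper inside a gene, more than 500 bp from both ends and in no window of a neighbour. The remaining 2999 (16.6%) lay outside coding genes and their windows, where 25.5% of the sequence is. Among these, 856 (28.5%) were inside another annotated gene, mostly a pseudogene, transcribed or not (723 anchors).

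Within 2000 bp of a gene end, anchors were densest in the first 1000 bp inside the gene. Counted by distance from the nearest end, there were 22.8 anchors per 100 kb at 200 to 400 bp inside a gene. There were 20.6 within the first 200 bp inside and 20.9 at 400 to 1000 bp inside. The density was 17.3 in the 200 bp outside the end and 10.8 at 1000 to 2000 bp outside. Deep in long genes, 1000 to 2000 bp from the nearest end, it was 14.2, between the values of the gene ends and of the distant intergenic sequence. Within genes cut into 10 equal stretches, the outermost stretches held 11.0% and 11.3% of the anchors and the fourth, in the middle, the lowest share, 8.69%. The gene table gives no strand, so the start and the finish of a gene cannot be told apart in these profiles.

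**Figure D2:**
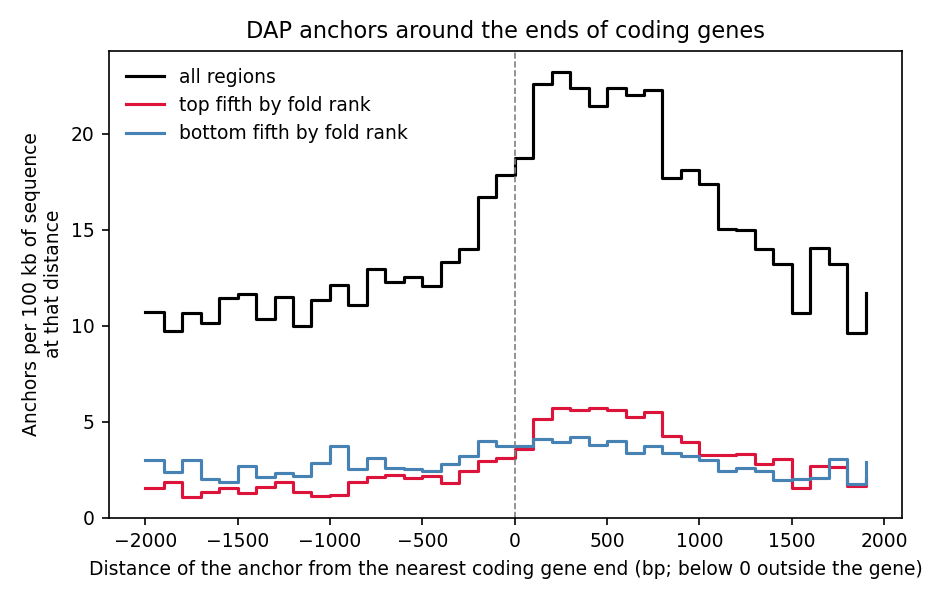
Number of DAP anchors per 100 kb of sequence (y axis) by distance from the nearest coding gene end in bp (x axis, below 0 outside the gene), for all regions and for the highest and lowest of 5 equal groups by fold rank. The line for all regions is highest from 100 to 800 bp inside the gene. The highest-ranked regions stay below the lowest-ranked ones outside genes and lie above them at 200 to 400 bp inside (5.68 and 4.08).

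Stronger sites lay inside genes more often than weaker ones. With the regions ranked by fold and parted into 5 equal groups, the share inside coding genes was 58.1% in the lowest group, then 61.8%, 63.8% and 67.8%, and 72.8% in the highest. The median fold of replicate 1 was 2.01 in the lowest of these groups and 5.27 in the highest. Each list gave the same order alone, from 58.1% to 72.1% in replicate 1 and from 57.5% to 72.2% in replicate 2. The share in end windows was level, between 55.0% and 57.0% in the 5 groups, while the share outside genes and windows went from 20.1% to 12.6%. At 200 to 400 bp inside a gene end the highest group had 5.68 anchors per 100 kb and the lowest 4.08, whereas at 1000 to 2000 bp outside they had 1.45 and 2.43. Median width was 419 bp in the lowest group, 374 bp in the next and 512 bp in the highest; its part in these shares was not tested, and neither was that of base composition or of reads that map to repeats.

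**Figure D3:**
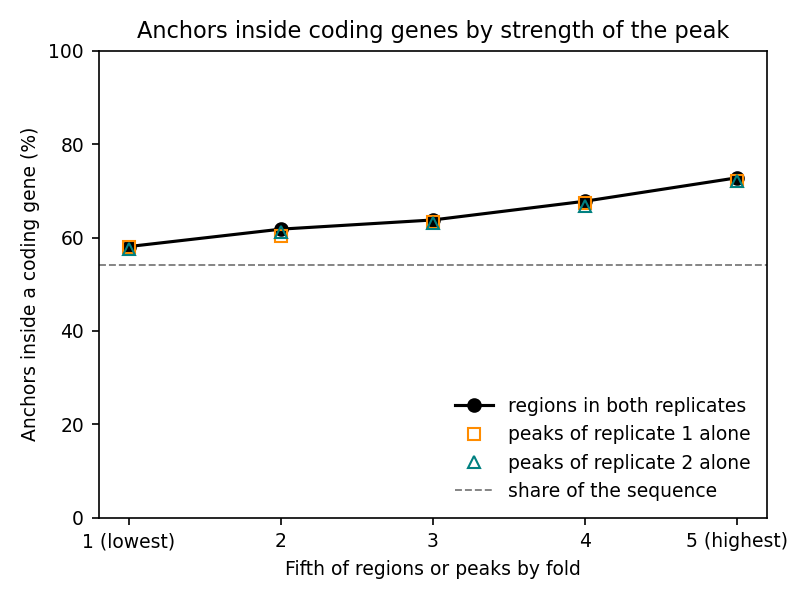
Share of anchors inside a coding gene (y axis, percent) in 5 equal groups from lowest to highest fold (x axis), for regions in both replicates and for the peaks of each replicate alone, with a dashed line at the share of sequence inside coding genes. All 3 series climb at each step, for shared regions from 58.1% to 72.8%, above the dashed line at 54.1%.

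Sites were spread over all chromosomes, and whole chromosomes with more coding genes held more of them. There were 4694 regions on chromosome 1, 2903 on 2, 3473 on 3, 2891 on 4 and 4121 on 5, which is 63.6 to 69.2 regions per 100 coding genes. The share inside coding genes was 63.2% to 66.2% on the 5 chromosomes. Gene-poor sequence was not empty, and between bins the number of regions changed less than that of genes. The 161 bins of 100 kb with 9 or fewer coding genes held a median of 10 regions (0 to 41). The 291 bins with 30 or more genes held a median of 16 (1 to 30). In each class of bins the share of anchors inside coding genes was above that of the sequence, from 12.9% against 7.57% in the gene-poorest bins to 76.4% against 71.1% in the richest.

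Counted by gene, the assay reached a large part of the genome. An anchor in at least 1 end window, here called bound, was found for 11931 of 27444 nuclear coding genes (43.5%), and an anchor inside the gene for 10030 (36.5%). Using the peaks of replicate 1 alone bound 48.3% of the genes and those of replicate 2 alone 48.7%. Bound by a region in the top 10% of rank were 1499 genes (5.46%). One anchor can count for several genes: 6114 anchors lay in the windows of 1 gene, 3610 in those of 2, and 333 in those of 3 or more. Such shares are the background for each gene class below, and a bound gene is a neighbour of a site, with no measure here of its transcription.

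Most genes with an internal anchor held 1 (8372 genes), and 1658 held at least 2. The most were 6 in AT1G48090, which spans 26499 bp, and 5 each in AT1G58050, AT2G34110 and AT4G38950. Gene length went with internal anchors and not with end windows. From the shortest to the longest of 5 equal groups of genes (median lengths 770 bp and 4233 bp) the share with an internal anchor was 15.8% and 53.6%, while the share bound at an end was 40.8% and 43.5%. For this reason classes are compared by the end windows, which have the same outer size for each gene.

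A strong region lay in the NAC103 gene itself. The region, on chromosome 5 from 25635112 to 25636010 (TAIR10), was 899 bp wide, with folds of 9.95 in replicate 1 and 9.33 in replicate 2. Its summit lay inside the gene, 10 bp from an end. The region ranked 177 of 18082. How the fusion protein was made is not known, and sources of signal at this gene other than binding were not tested.

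The 20 highest-ranked regions had folds of 16.4 to 31.3 in replicate 1 and 16.1 to 30.8 in replicate 2. Of their anchors 19 lay inside a coding gene, and 14 lay in an end window. First came the region at AT1G11690 and AT1G11684 (chromosome 1, 3941531 to 3942385), with folds of 31.3 and 30.8. It was followed by AT2G18540 (chromosome 2, 8042250 to 8043421), with 28.9 and 26.0.

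Several of these regions lay at genes known from reproduction. MYB120, a regulator of pollen tubes and their release of sperm, held a region of 1936 bp on chromosome 5 (22324777 to 22326712) with folds of 28.2 and 29.6. EC1.2, which encodes a secreted protein of the egg cell, shared an anchor 25 bp inside its end with CAD2, a cinnamyl alcohol dehydrogenase gene (chromosome 2, 9281609 to 9282641; 23.0 and 22.3). DAZ2, a zinc finger gene of the male germ line, had the only anchor of the 20 outside a coding gene, 89 bp from its end, with folds of 18.5 and 17.2. This group was put together after its values were seen.

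Other top regions lay in or near genes of cell walls, signalling and DNA repair. EXT13, an extensin of the cell wall, had folds of 22.4 and 21.8. CPK25, a calcium-dependent protein kinase gene, had 18.9 and 18.3, with the summit 629 bp from its nearest end. DDB2, whose product recognises DNA damaged by ultraviolet light, shared a region with AT5G58750 at 19.9 and 21.0. The summit of this region lay inside AT5G58750 and 699 bp outside DDB2. RTM2, a gene that restricts the movement of a potyvirus, shared one with ABO6, an RNA helicase gene, at 21.6 and 23.0. PMZ, a zinc finger gene, and AT3G28200 had 18.5 and 18.6, while bZIP43 had 19.7 and 19.9. ACC1, the acetyl-CoA carboxylase of fatty acid synthesis, had 16.5 and 16.4. PMI1, which acts in chloroplast movement, and MLO9, of the MLO membrane proteins, had 17.0 in both replicates.

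The rest of the 20 were AT3G28770, with folds of 25.2 and 24.5, AT4G16790, AT2G26440, AT5G15340 and AT5G02140, the pair AT3G49950 and AT3G49960, and a region shared by AT5G15780, PSRP3/2 and GNA1. That last region, inside AT5G15780 and in the windows of a plastid ribosomal protein gene (PSRP3/2) and a gene of amino sugar metabolism (GNA1), had folds of 18.4 and 17.5. Among the 20 the replicates were furthest apart at AT2G18540.

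**Figure D4:**
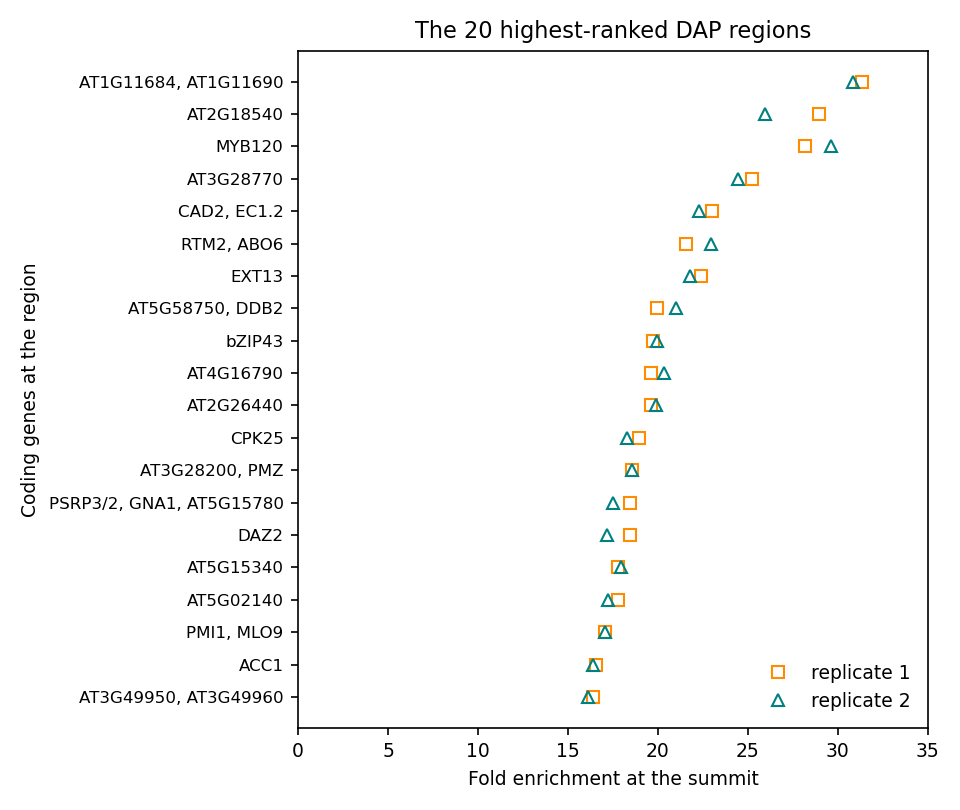
Fold enrichment at the summit (x axis) of the 20 highest-ranked regions in replicate 1 (squares) and replicate 2 (triangles), with the coding genes at each region on the y axis. The values go from 31.3 and 30.8 at AT1G11690 down to 16.4 and 16.1 at AT3G49950 and AT3G49960.

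Gene classes were formed from gene names with earlier results of these data known, and were trimmed by name after values were seen. Of these classes 28 had at least 10 genes. The bound share was above the 43.5% of all coding genes in 16 and below it in 12. Members that lie side by side can share an anchor, and only genes that carry a family name are counted. Shares are given as descriptions, with no test. Of the 28 classes, 17 stayed on 1 side of the share of all genes under each replicate alone, a stricter peak threshold, the gene with 1000 bp on either side, and the nearest gene only: 13 above and 4 below. Such settings reuse the same peak lists and classes, so they are no independent test of the shares.

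**Figure D5:**
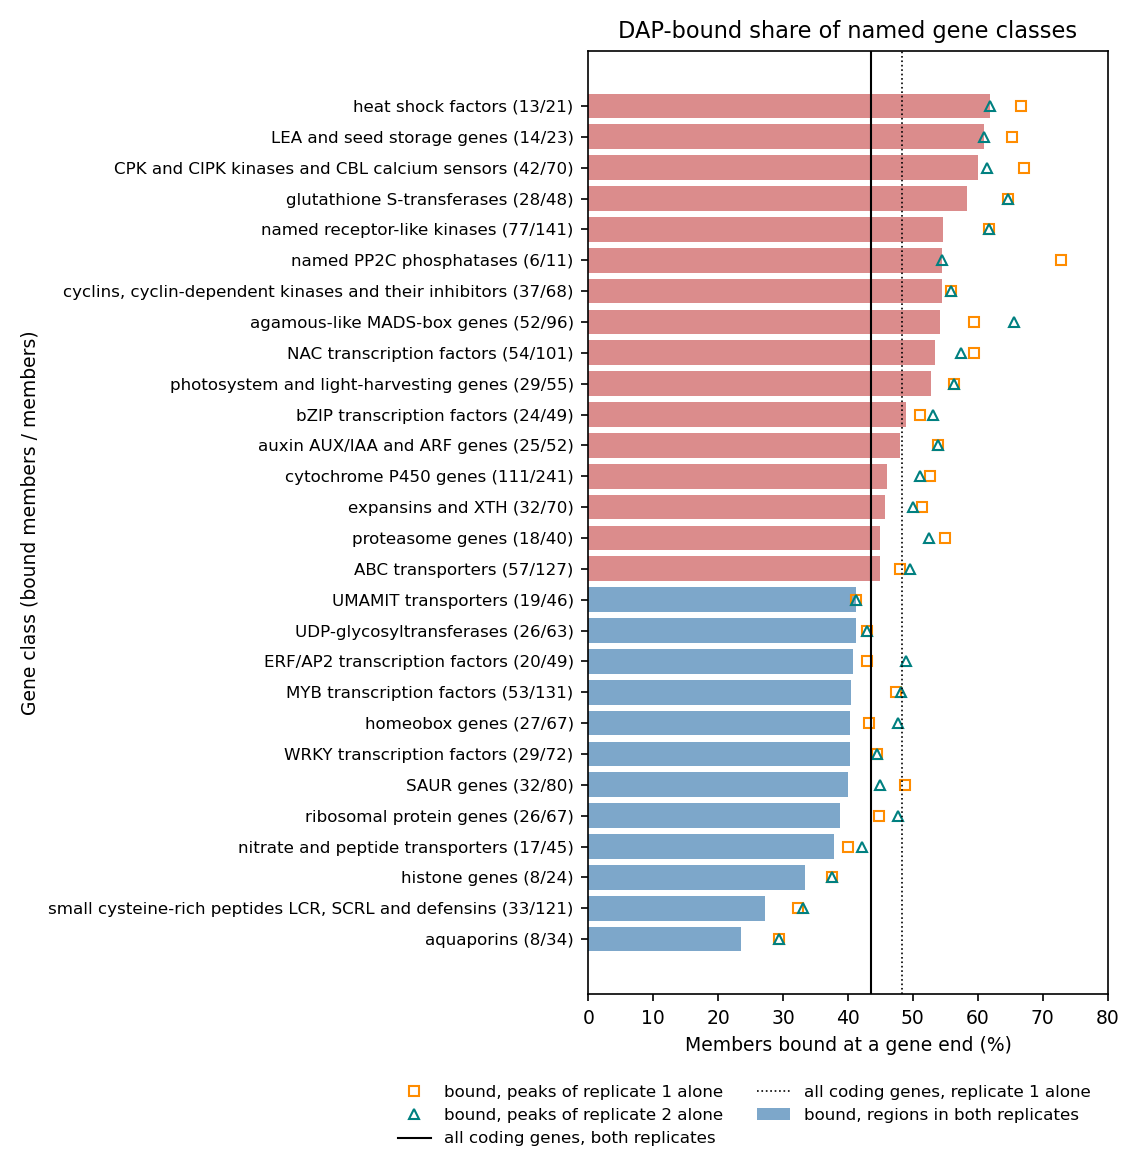
Share of members bound at a gene end (x axis, percent) for the 28 classes (y axis, bound and total members in brackets), as bars for regions in both replicates, red above and blue below all coding genes, and as squares and triangles for each replicate alone. Vertical lines mark all coding genes, 43.5% for both replicates (solid) and 48.3% for replicate 1 alone (dotted); bars run from 61.9% for heat shock factors to 23.5% for aquaporins.

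Among transcription factors, heat shock factors had the highest bound share. These factors switch on chaperone genes in heat, and 13 of 21 were bound (61.9%), 14 by replicate 1 alone and 13 by replicate 2 alone. HSFA6A led with folds of 11.0 and 11.8, and HSFA9, a factor of seed maturation, had 6.01 and 6.13, followed by HSFA8 with 4.62 and 4.18. Agamous-like MADS-box genes, many of which act in reproduction, were bound in 52 of 96 cases (54.2%), AGL82 with folds of 7.17 and 7.90 and AGL30 with 6.05 and 6.52.

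NAC103's own family was bound in 54 cases, 53.5% of its named genes, and 11 of its members (10.9%) by a region in the top 10% of rank, where the share of all genes was 5.46%. The highest-ranked was NAC064, with folds of 11.2 and 12.0, ahead of NAC103 itself. The bZIP factors, which include regulators of seed and stress genes, were bound in 24 of 49 cases (49.0%), with bZIP42 at 10.3 and 11.0 after bZIP43.

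Among the factor families counted here, MYB, WRKY, homeobox and ERF/AP2 genes lay a little under the share of all genes. MYB factors were bound in 53 of 131 cases (40.5%), yet 11 of them by a top-ranked region, that is one in the top 10% of rank (8.40%): MYB59, second to MYB120, had folds of 10.8 and 10.9. WRKY factors, known from defence, were bound in 29 of 72 cases (40.3%), WRKY20 with 5.08 and 5.51 and WRKY74 with 5.08 and 5.43. Homeobox genes were bound in 27 of 67 cases (40.3%), with an anchor inside ATHB54 at 5.53 and 6.48. The same anchor lay 899 bp outside AT1G27050, which a synonym alone put in this class. ERF/AP2 factors were bound in 20 of 49 cases (40.8%), with CRF8, a cytokinin response factor, at 6.70 and 7.08, and CEJ1 at 5.47 and 5.65. None of these 4 families stayed below the share of all genes under every setting.

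Both kinase classes of signalling had bound shares above that of all genes. Calcium signalling is carried by CPK kinases, which bind calcium themselves, and by CIPK kinases, which work with CBL calcium sensors. Of these 70 genes 42 were bound (60.0%), 47 by replicate 1 alone and 43 by replicate 2 alone. CBL2 had folds of 7.61 and 7.46, CIPK23 had 7.44 and 6.86, and CIPK2 had 6.86 and 6.41. Named receptor-like kinases, which sense signals at the cell surface, were bound in 77 of 141 cases (54.6%), led by AT1G15530 with 11.8 and 12.2 and AT2G29220 with 7.50 and 6.90. Of 11 named PP2C phosphatases 6 were bound (54.5%), HAB1 with 5.04 and 5.53 and PLL4 with 3.11 and 3.86. At a −log10 q of at least 10 it was 5 of 11 (45.5%), against 36.6% of all coding genes. The auxin AUX/IAA repressors and ARF factors had 25 of 52 members bound (48.1%) but only 1 by a top-ranked region, and IAA10 came first with 5.24 and 5.49, then IAA19 with 4.04 and 4.67. SAUR genes, short genes induced early by auxin, were bound in 32 of 80 cases (40.0%), AT4G31320 with 6.18 and 6.82 and AT5G42410 with 5.85 and 6.11.

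Genes of stress protection and detoxification included the class with the highest share of strong sites. Glutathione S-transferases, which attach glutathione to toxic compounds, were bound in 28 of 48 cases (58.3%), and 9 of them (18.8%) by a region in the top 10%, the highest such share among the 28 classes. GSTU2 and GSTU1 shared an anchor with folds of 7.07 and 7.50, and GSTU13 had 6.82 and 7.48. LEA and seed storage genes, active in drying seeds, were bound in 14 of 23 cases (60.9%). OLEO1, an oleosin of seed oil bodies, had folds of 5.56 and 5.55, LEA3 had 5.20 and 5.23, and EM1 had 4.66 and 4.36. Only 6 small heat shock protein genes were caught by name, fewer than the 10 asked of the 28 classes. All 6 were bound, by 5 regions, against 43.5% of all coding genes. At a −log10 q of at least 10 it was 5 of 6, against 36.6%. HSP23.6-MITO, of mitochondria, was highest at 7.48 and 7.12 and HSP18.2 lowest at 2.26 and 1.93.

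Enzyme families of secondary metabolism lay near the share of all genes at their ends and above it inside. An anchor inside the gene was found for 119 of 241 cytochrome P450 genes (49.4%) and for 35 of 63 UDP-glycosyltransferase genes (55.6%), against 36.5% of all coding genes, at median lengths of 2076 and 1848 bp against 2078 bp. At an end 111 cytochrome P450 genes were bound (46.1%), with CYP705A22 at 7.84 and 8.81 and CYP86A4, a fatty acid hydroxylase of the cuticle, at 7.61 and 8.20. Of the UDP-glycosyltransferases 26 were bound at an end (41.3%). UGT74F2, which glucosylates salicylic acid, had folds of 13.2 and 14.0, and its relative UGT74F1 had 10.1 and 9.93.

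Among transporters, only aquaporins lay below the share of all genes under every setting. Aquaporins, the water channels of plant membranes, had the lowest share of all 28 classes, 8 of 34 (23.5%), with 10 bound by either replicate alone. NIP7;1 had folds of 7.38 and 7.0, TIP4;1 had 4.71 and 3.68, and NIP1;2 had 3.75 and 4.38. Nitrate and peptide transporters were bound in 17 of 45 cases (37.8%), among them NRT2.7, which loads nitrate into seed vacuoles, with 9.54 and 9.57, PTR1 with 5.91 and 5.03 and PTR3 with 3.67 and 3.80. With the gene and 1000 bp on either side their share was above that of all genes (60.0% against 55.8%). UMAMIT transporters, exporters of amino acids, were bound in 19 of 46 cases (41.3%) and none by a top-ranked region, UMAMIT17 with 5.27 and 4.91 and UMAMIT36 with 3.94 and 4.02. Counting the nearest gene only put them above all genes (37.0% against 32.4%). ABC transporters, with 57 of 127 bound at an end (44.9%), are long genes, and 82 of them had an anchor inside; ABCG4 had folds of 8.04 and 8.10, and ABCG8 8.00 and 8.12.

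Growth and housekeeping genes split. Cyclins, cyclin-dependent kinases and their inhibitors were bound in 37 of 68 cases (54.4%), with CYCA3;2 and CYCA3;3 at 1 shared anchor (10.3 and 10.8). Photosystem and light-harvesting genes were bound in 29 of 55 cases (52.7%), PSAG of photosystem I with 10.8 and 11.1 and PSAD-1 with 7.34 and 6.72. Expansins and XTH enzymes, which loosen cell walls, were bound in 32 of 70 cases (45.7%) and only 1 by a top-ranked region, EXPA9 with 15.4 and 14.1, ahead of EXPA2 with 5.02 and 5.45. Genes named for the proteasome were bound in 18 of 40 cases (45.0%), with PAE1, of the core particle, at 6.97 and 6.23, and RPT2a, of the regulatory particle, at 5.87 and 5.37. Below the share of all genes were ribosomal protein genes with 26 of 67 (38.8%), PSRP3/2 first among them, and histone genes with 8 of 24 (33.3%). The histone sites were weak, HTB4 at 3.30 and 3.02, HTB2 at 3.59 and 2.78 and HTA13 at 2.94 and 2.88, and no histone gene had a top-ranked region.

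Small cysteine-rich peptide genes and the egg-cell genes lay on opposite sides of the 43.5% of all coding genes. The LCR, SCRL and defensin genes, which encode small cysteine-rich peptides, were bound in 33 of 121 cases (27.3%), with 39 and 40 by the replicates alone. They are short, with a median of 616 bp, and the shortest of 5 equal groups of all genes was bound in 40.8% of cases. LCR17 had folds of 6.88 and 7.86, LCR56 had 6.76 and 6.84, and SCRL21 had 5.10 and 4.60. All 5 EC1 genes, also short and cysteine-rich, were bound, a class too small to be among the 28. At a −log10 q of at least 10 it was 4 of 5, against 36.6% of all coding genes. EC1.3 had folds of 16.3 and 15.7 and ranked 23, EC1.4 had 5.89 and 5.95, EC1.1 had 2.30 and 2.57, and EC1.5 had 1.99 and 1.89. Strength therefore varied widely within this family, from weak sites to one of the 20 strongest.

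Pathways linked with NAC factors and stress were read from 6 written lists, chosen with earlier results of these data known. Of 12 genes of the mitochondrial dysfunction regulon, which NAC factors switch on when mitochondria fail, 10 were bound (83.3%). Each replicate alone also bound 10, where the shares of all coding genes were 48.3% and 48.7%. The list of each replicate holds the shared regions too, so this is no separate check. AT2G21640 had folds of 9.10 and 9.25, and BCS1, a gene of a mitochondrial ATPase, had 8.11 and 8.50. The other 8 lay between 2.39 and 4.50, TIM17-1 of the protein import machinery with 4.50 and 3.98 and SOT12, a sulfotransferase, with 3.54 and 3.38. NAC13, a known activator of this regulon, and ABCB4 had no region at an end and no anchor inside.

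Folding in the endoplasmic reticulum, the process with which NAC103 is linked, had the lowest share of the lists, 5 of 24 genes (20.8%), with 6 and 7 bound by the replicates alone. ERO1, which oxidises protein disulfide isomerase, had the one strong site at 6.14 and 5.31, 821 bp outside its end. The chaperone genes BIP3 and BIP2 had 3.25 and 3.22, and 2.36 and 2.51, and the sensor IRE1-1 had 2.55 and 2.43. BZIP60 was not bound at an end but held 1 anchor inside. Counting anchors inside genes, 9 of the 24 had one (37.5%), close to the 36.5% of all coding genes.

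Abscisic acid genes were bound in 9 of 32 cases (28.1%), against 43.5% of all coding genes. Replicate 1 alone bound 14 (43.75%), nearer to its 48.3% of all coding genes. Replicate 2 alone bound 11 (34.4%), against 48.7%. ABA2, an enzyme of abscisic acid synthesis, led with folds of 7.01 and 6.96. Of the receptors only PYL5 was bound, at 2.88 and 2.71. The phosphatases ABI1 (1.89 and 1.93), HAI3 and PP2CA joined HAB1, and CYP707A4, of abscisic acid breakdown, had 4.42 and 4.46. None of the SnRK2 kinases and ABF factors on the list was bound at an end, but ABF2, SNRK2.2 and SNRK2.3 each held 1 anchor inside.

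DNA damage and leaf senescence lists lay above the 43.5% of all coding genes, but hold only 13 and 12 genes. DNA damage genes were bound in 7 of 13 cases (53.8%): TSO2, a subunit of ribonucleotide reductase, had 8.89 and 8.87, and PARP1 had 5.35 and 4.95. SOG1, the NAC factor that directs this response, was not bound. Leaf senescence genes were bound in 8 of 12 cases (66.7%), with NYC1, which breaks down chlorophyll b, at 7.23 and 6.90, and the NAC regulators NAP at 2.69 and 2.63 and NAC6 at 1.97 and 2.17. Autophagy genes were bound in 9 of 17 cases (52.9%), led by APG9 at 4.95 and 4.67, and none by a top-ranked region. At a −log10 q of at least 10 the autophagy count was 6 of 17 (35.3%), against 36.6% of all coding genes, so this list changed sides with the threshold.

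Genes that do not encode proteins were bound at an end less often. The share was 25.5% for 3917 pseudogenes, 36.6% for 926 transcribed pseudogenes and 35.7% for 3480 long noncoding RNA genes. It was 28.8% for 326 microRNA genes, 24.7% for 287 small nucleolar RNA genes and 21.0% for 625 transfer RNA genes. Genes of noncoding RNA are mostly shorter than coding genes, so their windows overlap themselves and cover less sequence, and the shares are not equal in reach to the 43.5% of coding genes. Inside pseudogenes not annotated as transcribed there were 679 anchors, in 14.9% of them, although their median length of 2043 bp was close to the 2078 bp of coding genes.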

How the data were processed

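The submitters' processing notes name BWA, MACS2 and the build TAIR10; versions are not given in the sources used here. The deposited peak lists give for each peak a score, a fold enrichment (a ratio) at the summit, the −log10 of a p-value and a q-value, and the summit's distance from the start, per the narrowPeak columns of the authors' files. The authors called each DAP replicate against the 1 NAC103-Halo input, per the labels. The design text speaks of genomic DNA extracted from seedlings, while the sample labels repeat the ChIP protocol of fixing and sonication for the DAP samples; which holds for them was not settled.

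The fold was used to rank and describe peaks within a list, since the files hold no counts. Regions were ranked by their percentile of fold in each list, averaged over the replicates. Coordinates are 1-based. Gene positions and names came from a RefSeq table of TAIR10.1, without strand. Its fit was checked with the ChIP anchors: on 5 of 5 chromosomes the share in the 300 bp outside gene ends was higher (21.8% to 25.2%) than after a shift of 2000 bp (11.0% to 12.7%).

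Members, gene lists and classes were chosen with earlier results of these data known, and the classes were trimmed by name after values were seen. Named genes were NAC103, those at the 20 highest-ranked regions, and the 2 or 3 highest-ranked bound members of each class, those of the pathway lists being chosen afterwards. Peaks on organelle genomes were left out of all shares. Motifs and promoter sequences were not analysed here. The values of 2 genes of the lists and classes are not reported here. No test was made, since there is 1 list per replicate. Alternatives were stricter thresholds, other overlaps, other gene windows and each replicate alone. The calculations were tested on simulated data. Python 3.11.15, pandas 2.3.3, NumPy 2.4.6, SciPy 1.17.1 and matplotlib 3.10.9 were used.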

Additional observations from a re-analysis of the deposited data

Results flagged for a closer look

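Both DAP lists also hold peaks on the organelle genomes, which no share above uses. Replicate 1 had 21 mitochondrial and 25 plastid peaks, and replicate 2 had 22 and 27. The mitochondrial peaks had a median fold of 2.61 in replicate 1 and 2.56 in replicate 2, near that of nuclear peaks, and reached 6.85 and 6.99. The plastid peaks were weaker, with medians of 1.47 and 1.45 and highest folds of 2.37 and 2.33. The plastid peak of highest fold had a −log10 q of 2678 in replicate 1 and 2690 in replicate 2.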

How the results depend on the processing

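The count of regions ran from 14709 to 20962 and that of bound genes from 8031 to 15326 under most alternatives. Keeping the 10000 peaks of highest fold per list left 8910 regions and 6517 genes, and a window of 500 bp outside and none inside left 4183 genes and 21.3% of anchors. The share inside coding genes was 66.3% at a −log10 q of at least 10, 69.4% with the 10000 peaks, 64.8% at 50% reciprocal overlap, 65.3% with summits within 100 bp, and 64.2% with either replicate left out (64.19 and 64.25). The share at gene ends was 55.5%, 55.8% and 55.6% under the first 3 of these, and 55.5% to 55.6% with a replicate left out. The median fold was 3.17, 3.88 and 2.94 with the threshold, the 10000 peaks and the summit rule, and 2.71 to 2.74 with a replicate left out. Leaving a replicate out keeps every peak of the other.

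The number of classes above all genes ran from 16 to 23; the highest came from counting only the nearest gene, an alternative chosen after seeing the data. At a −log10 q of at least 10, auxin AUX/IAA and ARF genes moved below (34.6% against 36.6%), and with the gene and 1000 bp either side expansins and XTH did (52.9% against 55.8%). ABC transporters did so without replicate 2 (48.0% against 48.3%). Classes that moved above in at least 1 setting were UMAMIT, nitrate and peptide transporters, UDP-glycosyltransferases, ERF/AP2, MYB, homeobox, WRKY and SAUR genes. Promoter and motif alternatives needed sequence and were not run. No paired analysis was possible because no test was made and only 1 group has DAP lists. Weak peaks, the unknown depth and the missing tag control limit all shares.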
